A study of Homo sapiens with 6 samples.

Results

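Histone modifying enzymes were followed in MV4-11 cells treated with WNK463. Genes were chosen by symbol alone: the lysine methyltransferases of the *KMT2*, *KMT5*, *SETD*, *SETDB*, *NSD*, *EZH*, *EHMT* and *SUV39H* families with *DOT1L*, the Polycomb subunits *EED* and *SUZ12*, the protein arginine methyltransferases, the *KDM* demethylases, the *KAT* acetyltransferases, the numbered histone deacetylases and sirtuins, and the numbered *BRD* genes. This gave 92 genes of the 20348 in the table, sorted into 12 classes. MV4-11 is an established cell line from acute myeloid leukemia (AML) that carries a *KMT2A*-*AFF1* fusion and an internal tandem duplication of *FLT3*. The Ctrl group held 3 untreated (blank control) samples, and the WNK463 group held 3 samples exposed to 1 μM WNK463, an inhibitor of the With-No-Lysine (WNK) kinases, and both were collected at 48 h. All values therefore describe 1 cell line, 1 dose and 1 time, and no other inhibitor or genetic knockdown was available to set beside the drug.

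Histone tails carry methyl and acetyl groups that are placed by writers, removed by erasers and bound by readers. Methylation of H3K4, H3K36 and H3K79 is typical of active genes, whereas methylation of H3K9 and H3K27 is typical of silent chromatin, and acetylation is added by KAT enzymes and removed by HDACs and sirtuins. In leukemias with a *KMT2A* fusion, the fusion protein relies on menin, *DOT1L* and elongation factors, and *KDM1A*, *EZH2*, *PRMT5* and *KAT7* have been studied as drug targets or dependencies.

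Each library held between 14915745 and 17411780 counts. Ctrl replicate 1 differed more from Ctrl replicates 2 and 3 (chi-square per degree of freedom 4.86 and 7.42) than these did from each other (2.66), and without it 23 of the enzymes were higher and 40 lower, beside the 24 and 41 given below. TMM normalization, which corrects for the makeup of a library, gave factors from 0.944 to 0.951 in the Ctrl group and from 1.05 to 1.06 in the WNK463 group. Over all 11973 genes that entered the test, the median log2 fold change was 0.02 with these factors and 0.17 when libraries were scaled by total counts alone, a shift of 0.15 that touches every small change below. Normalized counts are given as CPM, counts scaled to library size with the TMM factors, and levels between genes are compared only as TPM, the share of a gene among all transcripts of a sample, which takes length into account. All 12 AML and myeloid markers looked up, such as *CD33*, *FLT3*, *HOXA9* and *MEIS1*, passed the filter on low counts. Of the 12, 6 were lower and 5 higher with WNK463, beside 35.3% lower and 35.5% higher among all tested genes. With total counts 3 were lower and 6 higher. Among those that changed were *LYZ* (lysozyme, log2 fold change -2.22, from 1360 ± 43.7 to 291 ± 11.6 CPM), *MPO* (myeloperoxidase, -2.50), *CSF1R* (0.97) and *ITGAM* (CD11b, 1.25). The part of these marker changes in the changes of the enzymes was not tested. Of markers of other cells, the 5 erythroid genes were at 0 in every sample and the 5 T cell genes summed to at most 0.511 CPM. The 5 B cell genes summed to 1.44 to 1.83 CPM in Ctrl and 3.08 to 3.43 CPM in WNK463, and the 6 epithelial and stromal genes to 18.9 to 21.0 CPM and 18.7 to 19.6 CPM, nearly all from the keratins *KRT8* and *KRT18*. In bulk RNA, fewer cells of a type and less RNA per cell cannot be told apart. Nothing in the labels says that the 3 samples of a group came from separate cultures, so p-values measure only the spread between these samples.

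Most of the enzymes were transcribed in MV4-11, and most changed by less than 2-fold. Of the 92 genes, 88 passed the filter. Transcripts of *KDM4E* and *KDM4F* were at 0 in every sample, *PRMT8* had 1 count in 1 sample, and *SIRT4*, a mitochondrial sirtuin, stayed below the filter with 0.244, 0.48 and 0.305 CPM in the Ctrl samples and 0.483, 0.988 and 0.702 CPM in the WNK463 samples. Among the 88, 41 were lower with WNK463 (46.6%) by edgeR's quasi-likelihood test at an adjusted p below 0.05, against 35.3% of all tested genes. Another 24 were higher (27.3%, against 35.5% of all tested genes), and 23 did not pass. These shares of all tested genes, 35.3% lower and 35.5% higher, stand beside every class and list count below. Changes of at least 2-fold were seen for 1 gene that fell, *HDAC9* (1.14%, against 5.55% of all genes), and 2 that rose, *PRMT2* and *KDM7A* (2.27%, against 9.62%). The members' log2 fold changes ran from -1.11 to 1.6 with a median of -0.14, and 68 of the 88 (77.3%) stayed within 0.5 of 0, as did 59.8% of all tested genes.

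The split between lower and higher depended on the scaling. With total counts, 29 members were lower, 35 were higher and 24 did not pass. In that fit 0 called members changed direction, and 12 that were lower lost their call: *SETD1B*, *EED*, *SUZ12*, *SETD4*, *SETD5*, *PRMT3*, *PRMT9*, *KDM5B*, *KDM5C*, *KDM8*, *KAT7* and *BRD1*. Another 11 that had not passed were then higher, namely *KMT2C*, *EHMT2*, *KMT5A*, *SETD3*, *KDM4A*, *KDM5A*, *KAT6A*, *KAT6B*, *KAT14*, *HDAC5* and *BRD2*. The 29 were lower with both scalings (33.0%, against 26.1% of all genes) and the 24 were higher with both (27.3%, against 35.5%). On log2(TPM + 1) with limma, only 19 members were lower and 31 were higher. Class medians moved with the scaling too, and total counts took those of the lysine demethylases from -0.07 to 0.08, the zinc-dependent deacetylases from -0.05 to 0.10, the bromodomain readers from -0.13 to 0.03 and the H3K79 and H4K20 methyltransferases from -0.06 to 0.09. The 3 samples of each group did not overlap for 67 members (76.1%, against 73.5% of all genes).

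**Figure D1:**
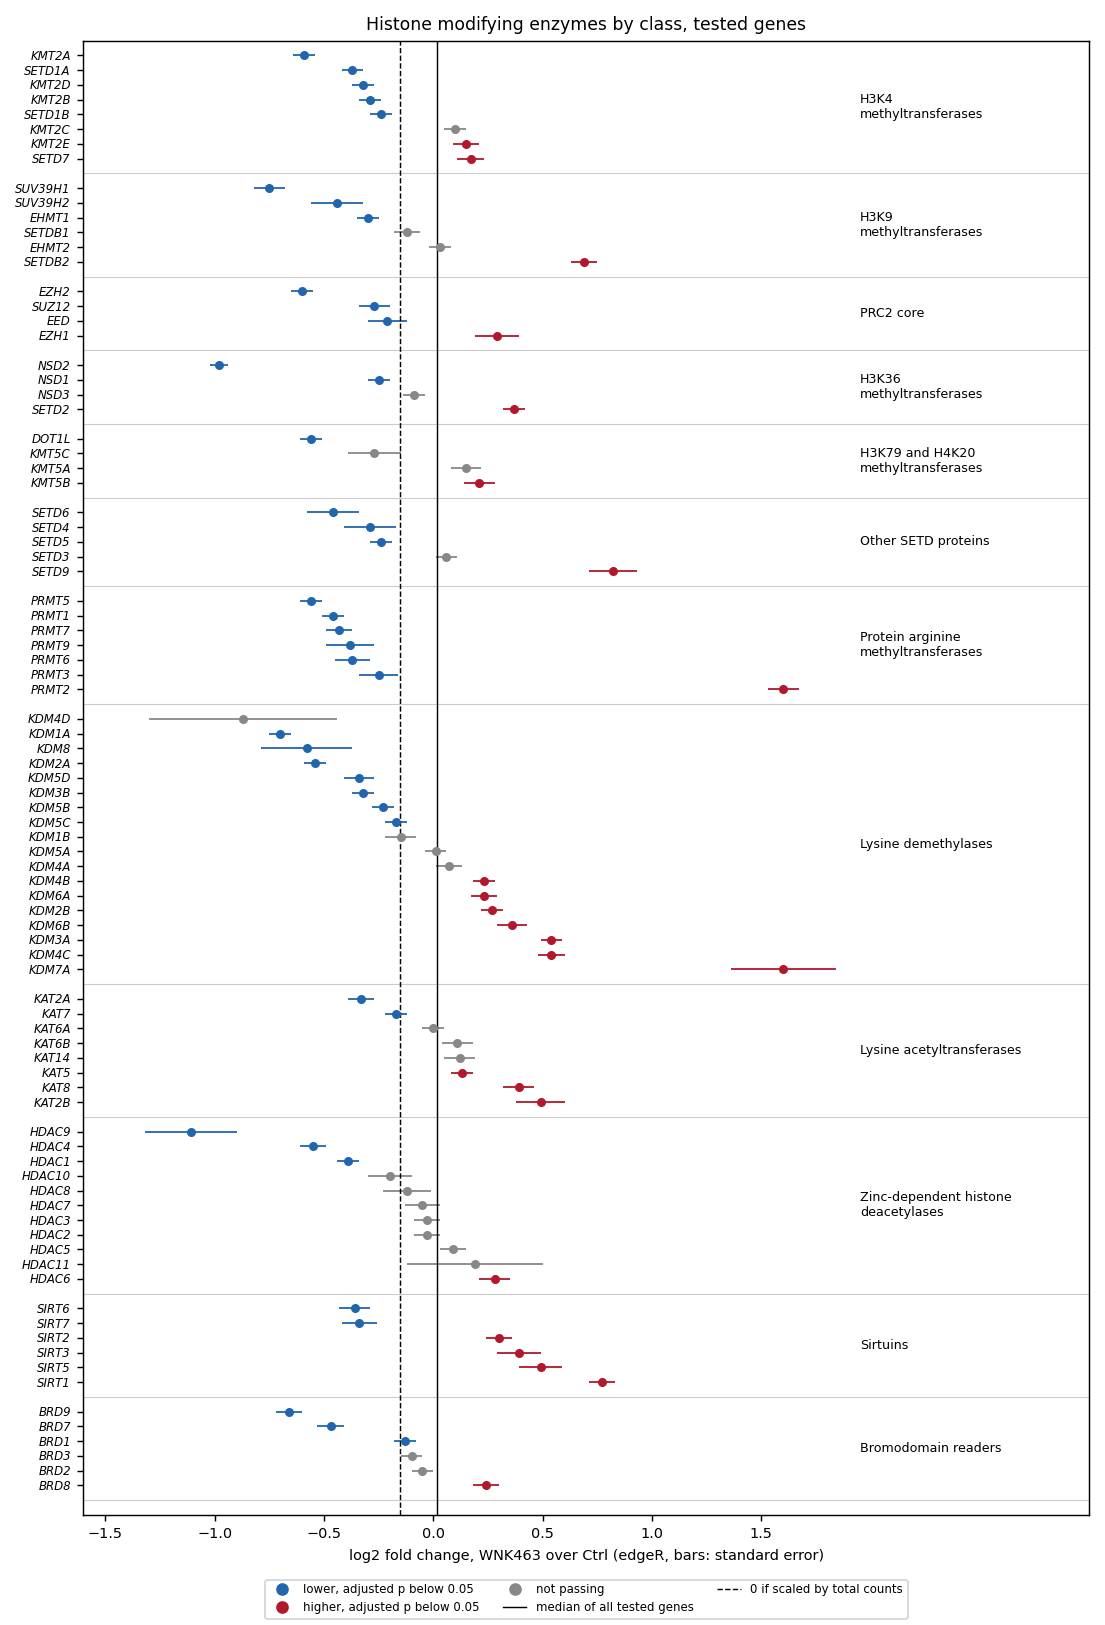
Log2 fold change of WNK463 over Ctrl (x axis, edgeR) for the tested enzymes, less 1 that is not drawn, grouped by class, with bars for the standard error and blue or red for genes lower or higher at an adjusted p below 0.05. *HDAC9* and *NSD2* lie furthest to the left and *PRMT2* and *KDM7A* furthest to the right, and most other points lie within 0.5 of 0; the dashed line shows where 0 would lie if libraries were scaled by total counts.

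Levels differed far more between enzymes than between treatments. The highest mean TPM among the methyltransferases was that of *PRMT1*, the main enzyme of asymmetric arginine dimethylation, at 365 ± 4.08 TPM in Ctrl and 308 ± 5.39 TPM in WNK463 (SD, n = 3). Among the readers it was *BRD2*, at 248 ± 5.83 TPM and 260 ± 12 TPM. Of the class I deacetylases, *HDAC1* at 194 ± 9.23 TPM in Ctrl, *HDAC2* at 159 ± 7.57 TPM and *HDAC3* at 119 ± 6.03 TPM were also abundant. *HDAC8*, of the same class, was at 23.1 ± 0.801 TPM in Ctrl. *HDAC1* fell, while *HDAC2* and *HDAC3* kept CPM that overlapped between groups. The lowest tested members were *KDM7A*, with 0.297 ± 0.0412 TPM in Ctrl, and *KDM4D*, with 0.562 ± 0.128 TPM.

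**Figure D2:**
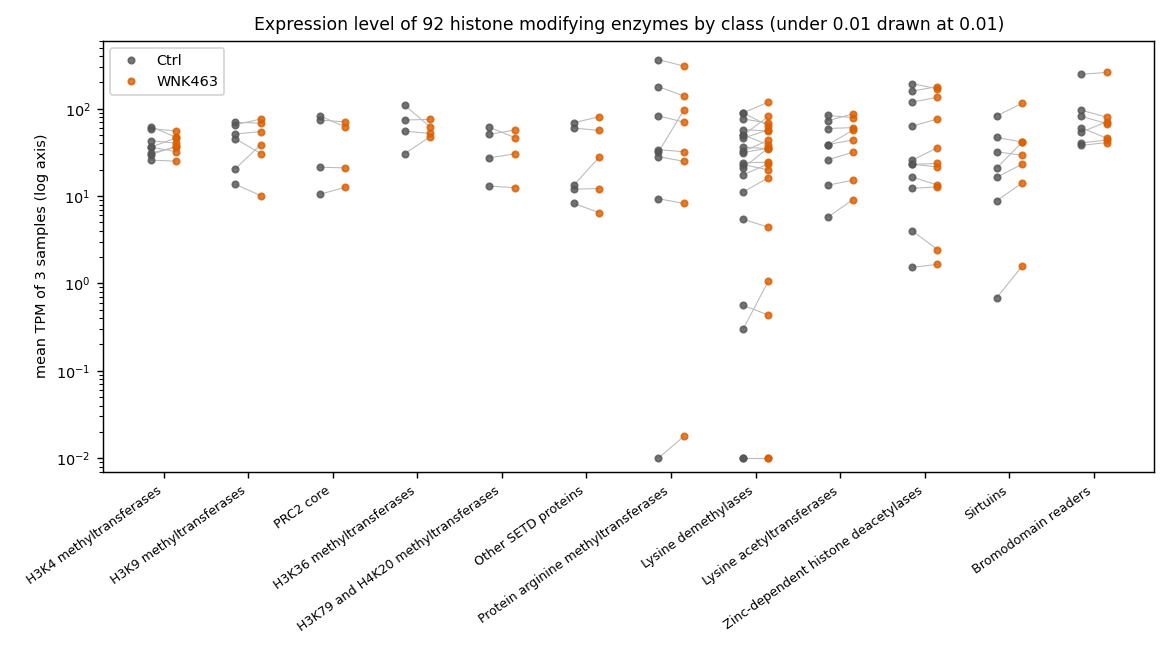
Mean TPM of the 3 samples per group (log y axis) for all 92 enzymes by class, Ctrl in grey and WNK463 in orange, with a line joining the values of a gene. Most lines are nearly flat on this scale, and both the arginine methyltransferases and the lysine demethylases reach down to 0, with upper ends at 365 and 119 TPM.

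The promoters of members that moved most were read because the replication genes described further on, many of which are E2F targets, fell in the same samples. RefSeq windows of the 250 bases before each annotated start (GRCh38.p14) were found for 83 of the 92 members, 128 windows in all. Both strands were searched for the E2F letters TTTGGCGC, TTTCCCGC, TTTGCCGC and TTTCGCGC, and for the cell cycle homology region (CHR) letters TTTGAA. The *NSD2* window is shown because *NSD2* fell most among members with at least 10 CPM, and that of *SUV39H1* because it came next. Capitals mark matches.

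*NSD2*, chr4:1871143-1871392, + strand: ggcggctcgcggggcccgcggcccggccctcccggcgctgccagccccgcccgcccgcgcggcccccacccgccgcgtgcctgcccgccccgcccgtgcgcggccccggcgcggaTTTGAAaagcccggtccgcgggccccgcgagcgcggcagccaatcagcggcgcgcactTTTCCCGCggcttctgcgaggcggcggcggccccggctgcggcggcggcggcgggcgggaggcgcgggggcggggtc

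*SUV39H1*, chrX:48695304-48695553, + strand: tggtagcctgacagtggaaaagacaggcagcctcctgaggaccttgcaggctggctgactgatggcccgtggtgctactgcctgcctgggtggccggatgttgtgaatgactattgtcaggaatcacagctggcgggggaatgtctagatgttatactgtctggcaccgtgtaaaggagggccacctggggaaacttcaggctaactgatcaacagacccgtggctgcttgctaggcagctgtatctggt

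In the *NSD2* window the E2F letters lay 77 bases before the start, and the CHR letters further upstream. The *SUV39H1* window, from the first of its 2 annotated starts, held no match, and neither did the window of *PRMT2*, which rose most among members with at least 10 CPM and whose window is not printed as it lies in an annotated first exon. E2F letters were found in 7 of the 128 member windows (5.47%), against 2.79% of all 35116 windows, and CHR letters in 9 (7.03%), against 13.3%. By direction, 5 of 57 windows of members that fell held E2F letters (8.77%), as did 1 of 36 windows of members that rose (2.78%). CHR letters were found in 5 of the 57 (8.77%) and in 0 of the 36. Of 30 windows of members that did not pass, 1 held E2F letters (3.33%) and 2 held CHR letters (6.67%). The matches of 3 other members are shown with their surroundings, E2F letters in capitals, to set a fallen Polycomb subunit, a fallen reader and the Polycomb enzyme *EZH1* side by side.

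*SUZ12*, chr17:31936807-31936836, + strand: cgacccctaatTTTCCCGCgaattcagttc

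*BRD7*, chr16:50368995-50369024, - strand: ggcgggccttcTTTCCCGCctctgcgccgg

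*EZH1*, chr17:42745137-42745166, - strand, letters on the opposite strand: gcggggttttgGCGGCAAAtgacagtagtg

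These letters stand 189 bases before the *SUZ12* start, 25 bases before that of *BRD7* and 115 bases before that of *EZH1*. A match is a description of the window, and binding of any factor was not measured.

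Among the H3K4 methyltransferases, 5 of 8 fell, 2 rose and 1 did not pass, against 35.3% lower and 35.5% higher among all genes. Their median log2 fold change was -0.26. With total counts 4 were lower and 3 higher, and the median was -0.11. *KMT2A* (MLL1, chr11:118436464-118526832, + strand, GRCh38), the gene broken in this line's fusion, had 295, 295 and 297 CPM in the Ctrl samples and 204, 191 and 193 CPM in the WNK463 samples. The groups lay far apart, and the fall was the largest of the class (log2 fold change -0.59, SE 0.05, adjusted p = 2.53e-09). Counts per gene do not separate transcripts of the normal allele from those of the fusion, whose 5′ part is *KMT2A* and whose 3′ part is *AFF1*. *KMT2D*, *KMT2B*, *SETD1A* and *SETD1B*, the catalytic subunits of other COMPASS complexes, fell by 0.32, 0.29, 0.37 and 0.24 on the log2 scale, and *SETD1B* did not pass when scaled by total counts. *SETD7*, a monomethyltransferase, had the largest rise (0.17, SE 0.06, adjusted p = 0.00991), which did not pass without Ctrl replicate 2 (0.12). *KMT2E* rose by 0.15, and *KMT2C* had a log2 fold change of 0.10 that did not pass. Summed over the class, the level was 324 ± 2.55 TPM in Ctrl and 320 ± 12.6 TPM in WNK463. This sum, like the class sums below, lacks the correction for library makeup that the fold changes carry. It therefore does not show whether other members offset the falls.

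Of 12 COMPASS and menin subunits, 8 fell, 1 rose and 3 did not pass, with a median of -0.25, beside 35.3% of all genes that fell. With total counts 4 were lower and 2 higher, and the median was -0.10. *HCFC1*, a host cell factor bound by the *KMT2A* and *SETD1A* complexes, fell from 398 ± 4.25 CPM to 187 ± 11.8 CPM (log2 fold change -1.09, adjusted p = 2.9e-12). *PAXIP1*, a subunit of the *KMT2C* and *KMT2D* complexes, fell by 1.06 on the log2 scale, and *WDR5*, the core scaffold, by 0.82. *MEN1*, which encodes menin, fell by 0.25 and *RBBP5* by 0.52, while *ASH2L* and *DPY30* did not pass. Of 9 DOT1L and elongation partners of KMT2A fusions, 3 fell, 4 rose and 2 did not pass (2 lower and 5 higher with total counts), and the directions were split between close relatives: *AFF1* had a log2 fold change of -0.72 and *AFF4* of 0.66, *MLLT1* of -0.60 and *MLLT3* of 1.74. *MLLT3* was low in both groups, with 0.853 ± 0.371 CPM in Ctrl and 2.85 ± 0.942 CPM in WNK463.

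The H3K9 methyltransferases split by gene. *SUV39H1* (chrX:48695554-48709012, + strand), which trimethylates H3K9 in pericentric heterochromatin, had 72.8, 64.7 and 62.1 CPM in Ctrl and 38.2, 40.1 and 40.2 CPM in WNK463. Every WNK463 sample was below every Ctrl sample, by a margin wider than the spread of either group (log2 fold change -0.75, SE 0.07, adjusted p = 2.23e-08). Its paralog *SUV39H2* and the dimethyltransferase *EHMT1* fell by 0.44 and 0.30. *SETDB2* went the other way, with 65.1, 70.9 and 66.4 CPM in Ctrl and 109, 115 and 104 CPM in WNK463, groups that did not overlap (0.69, SE 0.06, adjusted p = 6.57e-09). *EHMT2* and *SETDB1*, with log2 fold changes of 0.03 and -0.12, did not pass. The class had a median of -0.21, or -0.06 with total counts. Its summed level was 266 ± 4.64 TPM in Ctrl and 279 ± 7.98 TPM in WNK463. TPM were not corrected for library makeup as the fold changes were, so the signs of the median and the sum cannot be compared. For *SUV39H1*, 20.3% of the exon bases are shared with a gene on the opposite strand, and whether reads were counted by strand was not given in the sources used here. Pseudogene copies are annotated for *EZH2*, *SUZ12*, *PRMT1*, *PRMT5*, *HDAC1*, *BRD7*, *BRD9* and *SETD6*, and how far counts were split with them was not tested.

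Polycomb repressive complex 2 (PRC2), which methylates H3K27, had fewer transcripts of its main catalytic subunit in the treated samples. *EZH2* (chr7:148807383-148884321, - strand) had 113, 117 and 115 CPM in the Ctrl samples and 78.4, 77.4 and 72.1 CPM in the WNK463 samples. No treated sample came near the Ctrl samples (log2 fold change -0.60, SE 0.05, adjusted p = 1.89e-08). *EZH1*, the paralog that prevails in cells that do not divide, had 21.1, 20.3 and 16.6 CPM in Ctrl and 23.0, 25.9 and 22.0 CPM in WNK463. The groups were close but did not overlap (0.29, SE 0.10, adjusted p = 0.0156), and the rise did not pass without Ctrl replicate 3 (0.18, adjusted p = 0.12) or without WNK463 replicate 2 (0.22, adjusted p = 0.0956). It did not pass with DESeq2 either (adjusted p = 0.0517), or on log2(TPM + 1) with limma (adjusted p = 0.213). *SUZ12* and *EED*, the other core subunits, fell by 0.27 and 0.21, and neither passed with total counts. Of 9 accessory subunits, 4 fell and 3 rose (3 and 4 with total counts): *JARID2* fell by 0.50, *RBBP7* by 0.47 and *RBBP4* by 0.39, whereas *PHF1* rose by 0.81, *LCOR* by 0.54 and *EPOP* by 0.45.

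The largest fall of any well expressed member was that of *NSD2* (also WHSC1 or MMSET, chr4:1871424-1982207, + strand), which dimethylates H3K36. Its values were 326, 331 and 323 CPM in Ctrl and 167, 168 and 162 CPM in WNK463. The 3 treated samples were nearly identical and stood close to the 2-fold limit, and the mean decreased by 49.3% (log2 fold change -0.98, SE 0.04, adjusted p = 2.64e-12). Of its relatives, *NSD1* fell by 0.25 and *NSD3*, at -0.09, did not pass. *SETD2*, which trimethylates H3K36, rose from 110, 115 and 118 CPM to 156, 142 and 145 CPM. Its groups did not overlap (0.37, SE 0.05, adjusted p = 8.91e-06). The summed level of these 4 genes was 270 ± 9.97 TPM in Ctrl and 237 ± 8.47 TPM in WNK463.

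*DOT1L* (chr19:2164149-2232578, + strand), the H3K79 methyltransferase recruited by *KMT2A* fusion proteins, had 236, 236 and 231 CPM in Ctrl and 162, 151 and 163 CPM in WNK463. All treated samples were lower (log2 fold change -0.56, SE 0.05, adjusted p = 9.23e-09). The H4K20 enzymes showed less. *KMT5B* rose by 0.21 (adjusted p = 0.00787), while *KMT5A*, which sets the first methyl group, and *KMT5C* had log2 fold changes of 0.15 and -0.27 and did not pass. On TPM, *KMT5B* did not pass either (0.15, adjusted p = 0.173), and its effective length, the ratio of counts to TPM within a sample, was larger in the WNK463 samples by 0.23 on the log2 scale, without overlap. Among the other SETD proteins, *SETD6*, a methyltransferase of nonhistone proteins such as RELA, fell by 0.46, *SETD4* by 0.29 and *SETD5* by 0.24. With total counts *SETD4* and *SETD5* did not pass. For *SETD6*, 21.4% of exon bases lie opposite *CNOT1*. *SETD9*, a gene of poorly known function, rose from 7.98, 8.30 and 9.45 CPM to 15, 15.5 and 15.1 CPM. Its Ctrl and WNK463 samples were well separated (0.82, SE 0.11, adjusted p = 3.21e-06).

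Of the arginine methyltransferases, 6 of the 7 tested fell and 1, the exception, rose, against 35.3% lower and 35.5% higher among all genes. With total counts 4 were lower and 1 higher. *PRMT5* (chr14:22920511-22929585, - strand), the main enzyme of symmetric dimethylation, had 214, 202 and 202 CPM in Ctrl and 135, 146 and 140 CPM in WNK463. No treated sample reached the lowest Ctrl sample (log2 fold change -0.56, SE 0.05, adjusted p = 1.88e-08). *PRMT1* fell from 274, 264 and 270 CPM to 191, 195 and 200 CPM (-0.46, SE 0.05, adjusted p = 5.96e-08). *PRMT7*, *PRMT9*, *PRMT6* and *PRMT3* fell by 0.43, 0.38, 0.37 and 0.25, the last with overlapping groups, and *PRMT3* and *PRMT9* did not pass with total counts. The class median was -0.38, the lowest of the 12 classes, and its summed level was 731 ± 17.6 TPM in Ctrl and 681 ± 23.3 TPM in WNK463. *CARM1*, an arginine methyltransferase that the symbol rule leaves out, fell by 0.32. Of 4 cofactors of *PRMT5*, *WDR77* (MEP50), its obligate partner, fell by 0.86 and *CLNS1A* (pICln), an adaptor for spliceosomal substrates, by 0.87, while *RIOK1* and *COPRS* did not pass. For *PRMT5*, 27.1% of exon bases lie opposite the antisense gene *PRMT5-AS1*.

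*PRMT2* (chr21:46635167-46665124, + strand), a coactivator of nuclear receptors with weak methyltransferase activity, was the exception, and it rose most among members with at least 10 CPM in 1 group. It had 26.9, 24.8 and 26.3 CPM in the Ctrl samples and 74.0, 82.7 and 79.6 CPM in the WNK463 samples. The lowest treated sample was far above the highest Ctrl sample, and the increase was 203% (log2 fold change 1.6, SE 0.07, adjusted p = 9.1e-13). In TPM it went from 31.7 ± 3.03 to 96.2 ± 6.07, which placed it below *PRMT7* in Ctrl and above *PRMT7* in WNK463. No annotated exon of another gene lies opposite it.

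**Figure D3:**
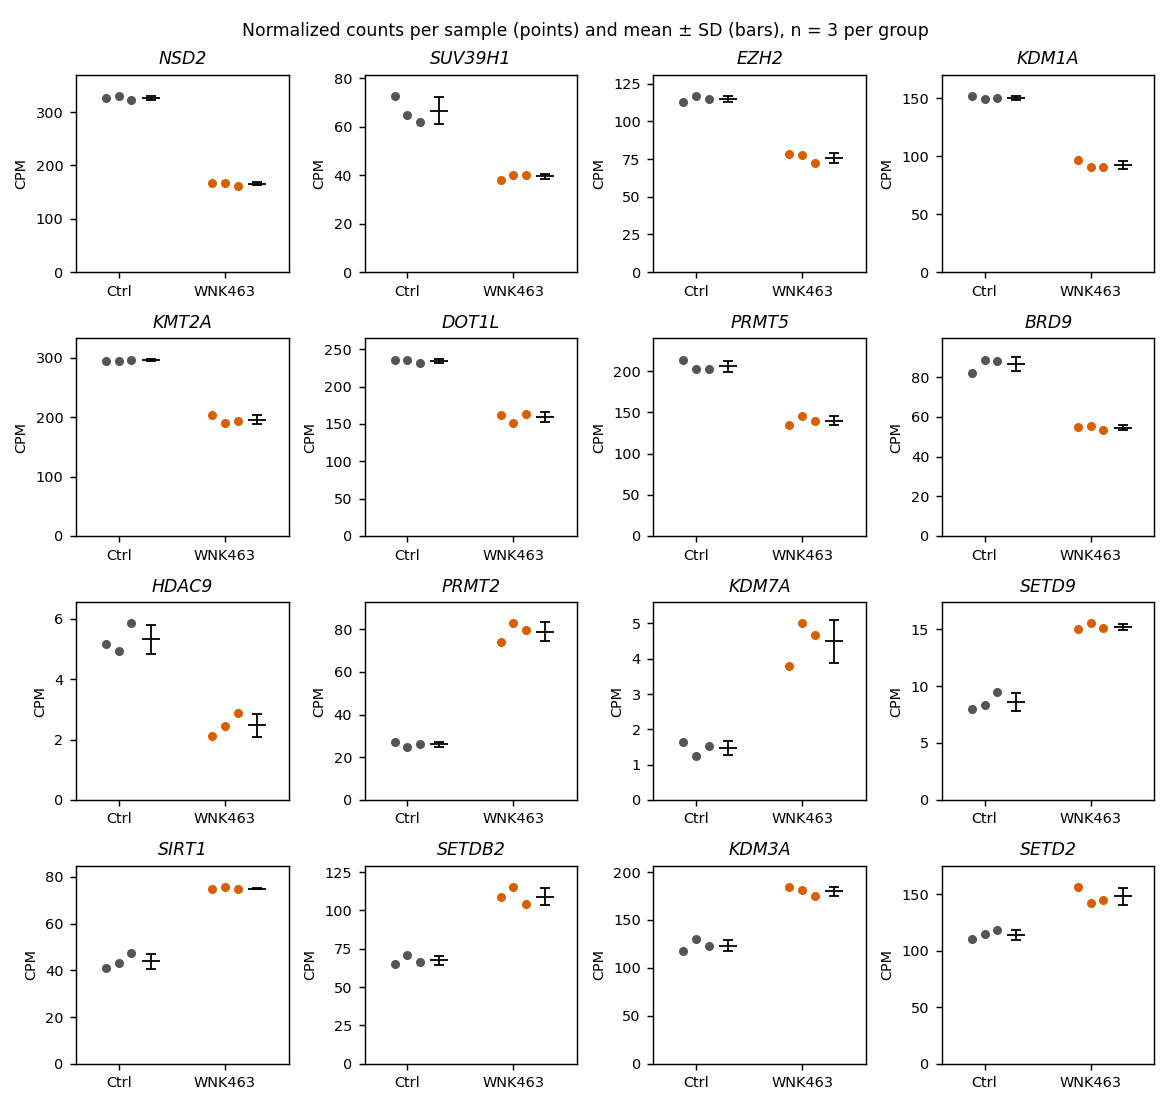
CPM (y axis, from 0) of 16 enzymes in each of the 3 Ctrl (grey) and 3 WNK463 (orange) samples, with mean and SD in black. In every panel the 2 groups are separate, from the small gap of *SETD2* to the gap of *PRMT2*, and *HDAC9* and *KDM7A* are the 2 genes plotted that lie below 6 CPM.

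Of the lysine demethylases, 20 genes of which 18 were tested, 7 fell, 7 rose and 4 did not pass, while total counts gave 4 lower and 9 higher. *KDM1A* (LSD1, chr1:23019443-23083689, + strand), which removes methyl groups from H3K4 and whose inhibitors promote differentiation of AML cells, had 152, 149 and 150 CPM in Ctrl and 96.4, 90.7 and 90.3 CPM in WNK463. It was lower in all treated samples (log2 fold change -0.70, SE 0.05, adjusted p = 1.04e-09), whereas its paralog *KDM1B* had a log2 fold change of -0.15 and did not pass. *KDM2A*, an H3K36 demethylase bound to CpG islands, fell by 0.54 and *KDM3B*, an H3K9 demethylase, by 0.32. *KDM8* fell by 0.58 at 3.77 to 7.67 CPM, with overlapping groups and no call with total counts. Of the *KDM5* family, H3K4 demethylases, *KDM5B* and *KDM5C* fell by 0.23 and 0.17, both without passing under total counts, and *KDM5A*, at 0.01, did not pass. *KDM4D* had a log2 fold change of -0.87 that did not pass (adjusted p = 0.0803), at less than 1 CPM in every sample.

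Among the 7 demethylases that rose, *KDM7A* changed most and at the lowest level. *KDM7A* (chr7:140084746-140177035, - strand), an H3K9 and H3K27 demethylase, went from 1.64, 1.23 and 1.52 CPM to 3.80, 5.0 and 4.66 CPM. The groups did not overlap and the log2 fold change was 1.6, but with an SE of 0.24 and a low level throughout (adjusted p = 1.27e-05). *KDM3A*, an H3K9 demethylase induced by hypoxia, rose from 118, 130 and 123 CPM to 184, 181 and 175 CPM, again without overlap (0.54, SE 0.05, adjusted p = 3.32e-08). *KDM4C*, of the H3K9 and H3K36 demethylases, rose by 0.54 as well and *KDM4B* by 0.23, while *KDM4A*, at 0.07, did not pass. The H3K27 demethylases *KDM6B* and *KDM6A* rose by 0.36 and 0.23, and *KDM2B*, a subunit of a variant Polycomb complex, by 0.27. Summed TPM of the class was 662 ± 5.08 in Ctrl and 724 ± 25.8 in WNK463.

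Of 8 acetyltransferases, 2 fell, 3 rose and 3 did not pass, while total counts gave 1 lower and 6 higher. *KAT2B* (PCAF) rose from 13.3, 12.6 and 14.7 CPM to 21.6, 16.3 and 19.0 CPM, without overlap (log2 fold change 0.49, SE 0.11, adjusted p = 0.000847). *KAT2A* (GCN5), its paralog and the more abundant one, went from 146, 132 and 129 CPM to 105, 115 and 103 CPM (-0.33, SE 0.06, adjusted p = 8.36e-05), a fall that did not pass on TPM (-0.08, adjusted p = 0.26). The pair thus moved in opposite directions on the counts. *KAT8* (MOF), which acetylates H4K16, rose by 0.39 and *KAT5* (TIP60) by 0.13, although 38.6% of *KAT5* exon bases lie opposite *RNASEH2C*. *KAT6A* (MOZ), *KAT6B* and *KAT14* had log2 fold changes of 0.00, 0.11 and 0.12 and did not pass, though all 3 were higher with total counts. *KAT7* (HBO1) had 121, 117 and 111 CPM in Ctrl and 108, 98.7 and 104 CPM in WNK463. The difference passed narrowly (-0.17, SE 0.05, adjusted p = 0.0102), but not with total counts (-0.02) or without WNK463 replicate 2 (adjusted p = 0.0526), and its sign turned on TPM (0.04). Outside the symbol rule, *EP300* fell by 0.30 and *HAT1* by 0.52, and *CREBBP*, at -0.09, did not pass. Of 31 subunits of acetyltransferase complexes, 9 fell, 13 rose and 9 did not pass (median 0.07, and 3 lower and 16 higher with total counts), with *TRRAP* and *EP400*, the large scaffolds of the TIP60 complex, falling by 0.57 and 0.52, and *ING4* rising by 0.66.

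Of 11 zinc-dependent deacetylases, 3 fell, 1 rose and 7 did not pass, beside 8473 of 11973 tested genes that passed. With total counts 3 were lower and 2 higher. *HDAC1* was the class I enzyme that changed, with 236, 211 and 217 CPM in Ctrl and 162, 168 and 175 CPM in WNK463, groups that did not overlap (log2 fold change -0.39, SE 0.05, adjusted p = 2.81e-06). *HDAC2* had 168, 175 and 187 CPM in Ctrl and 162, 178 and 181 CPM in WNK463. *HDAC3*, the catalytic subunit of the NCoR complex, had 127, 114 and 125 CPM against 120, 114 and 125 CPM. Both genes overlapped between groups, each with a log2 fold change of -0.03 (SE 0.06) that turned to 0.13 and 0.12 with total counts and to 0.17 and 0.18 on TPM, where both passed. Among the class II enzymes, which shuttle between nucleus and cytoplasm, *HDAC4* fell by 0.55 and *HDAC5*, at 0.09, did not pass. *HDAC6*, the tubulin deacetylase, rose from 59.5, 54.3 and 49.9 CPM to 68.9, 62.7 and 66.8 CPM (0.28, SE 0.07, adjusted p = 0.00156).

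*HDAC9* (chr7:18086949-19002416, + strand), a class IIa deacetylase, was the only member that fell by 2-fold or more. Its values were 5.18, 4.94 and 5.85 CPM in Ctrl and 2.11, 2.44 and 2.87 CPM in WNK463. The groups were separate (log2 fold change -1.11, SE 0.21, adjusted p = 0.000117). With total counts the log2 fold change was -0.95, below the 2-fold limit, and leaving out single samples gave -1.23 to -1.01. On TPM it went from 4.01 ± 1.02 to 2.44 ± 0.498. *HDAC7*, another class IIa enzyme, stayed between 21.9 and 24.2 CPM in all 6 samples (-0.05).

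Of 28 subunits of the deacetylase corepressors, 15 fell, 8 rose and 5 did not pass, with a median of -0.23, against 35.3% lower and 35.5% higher among all genes. With total counts 13 were lower and 12 higher, with a median of -0.07. *TBL1X*, of the NCoR complex, fell by 1.13. In NuRD, the remodelling deacetylase complex, *MTA1* fell by 0.93, *MTA2* by 0.43, *MBD3* by 0.56 and *CHD3* by 0.69, while *CHD4* and *GATAD2B* rose by 0.21 and 0.44. *MTA3* fell from 2.92 ± 0.82 CPM to 0.161 ± 0.125 CPM. In CoREST, the partner of *KDM1A*, *RCOR1* fell by 0.23 and *RCOR2* by 1.80 (from 6.61 ± 1.13 CPM to 1.89 ± 0.371 CPM), whereas *RCOR3* rose by 0.31.

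Sirtuins, the NAD-dependent deacylases, had the highest class median, 0.35, with 4 of 6 tested genes higher and 2 lower. Among all tested genes 35.5% were higher and 35.3% lower. Total counts also gave 4 higher and 2 lower, with a median of 0.5. *SIRT1*, the nuclear enzyme that deacetylates p53 and histones, went from 41.1, 43.2 and 47.3 CPM in Ctrl to 74.9, 75.5 and 74.8 CPM in WNK463. The treated samples were almost equal and all were higher (log2 fold change 0.77, SE 0.06, adjusted p = 4.77e-09). The mitochondrial *SIRT5* and *SIRT3* and the cytoplasmic *SIRT2* rose by 0.49, 0.39 and 0.30. *SIRT6*, a chromatin deacetylase, went from 40.4, 38.2 and 37.6 CPM to 28.3, 30.5 and 31.9 CPM (-0.36, SE 0.07, adjusted p = 0.000271), and the nucleolar *SIRT7* fell by 0.34. Summed over the class the level was 209 ± 5.05 TPM in Ctrl and 266 ± 5.61 TPM in WNK463. The groups did not overlap, as was also so for the sums of several other classes, some higher and some lower. These sums lack the correction for library makeup.

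The bromodomain genes gave 4 that fell, 1 that rose and 2 that did not pass, against 35.3% lower and 35.5% higher among all genes. With total counts 3 were lower and 2 higher. *BRD9*, a subunit of the noncanonical BAF remodeller, had 82.3, 88.8 and 88.2 CPM in Ctrl and 54.9, 55.6 and 53.2 CPM in WNK463. It fell in every treated sample (log2 fold change -0.66, SE 0.06, adjusted p = 1.07e-08). *BRD7*, the matching subunit of another BAF form, fell by 0.47, although 42.4% of its exon bases lie opposite other genes. *BRD2* and *BRD3*, readers of acetylated histones, had log2 fold changes of -0.05 and -0.10 and did not pass. *BRD1*, a partner of *KAT7*, fell by 0.13 and did not pass with total counts. *BRD8*, of the TIP60 complex, rose from 72.6, 79.6 and 73.7 CPM to 93.5, 89.8 and 83.7 CPM (0.24, SE 0.06, adjusted p = 0.00148).

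Ratios between paralogs within a sample do not move with the scaling of libraries. Of 30 pairs, 24 had ratios that did not overlap between groups, beside 73.5% of all tested genes whose own CPM did not overlap. The share among other pairs of genes was not counted. Each of the 24 pairs reached p = 0.10 in an exact two-sided permutation test (adjusted p = 0.12). That is the smallest p that 3 against 3 samples can give, so none could pass, and the values are a description. In 10 pairs the log2 ratio of CPM moved by at least 0.5. *EZH2* over *EZH1* went from 2.58 ± 0.19 to 1.69 ± 0.10, and on TPM from 7.96 times to 4.99 times the level of *EZH1*. *NSD2* over *NSD3* went from 0.92 ± 0.03 to 0.03 ± 0.02, and *NSD2* transcripts, 1.49 times those of *NSD3* on TPM in Ctrl, were at 0.82 times in WNK463. The order of the 2 genes on TPM thus turned.

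Other pairs moved by similar amounts. *KDM3A* over *KDM3B* rose from -0.99 ± 0.09 to -0.13 ± 0.05, and on TPM *KDM3A* went from 0.647 times to 1.19 times the level of *KDM3B*. *SETDB1* over *SETDB2* fell by 0.81, as did *KDM2A* over *KDM2B* and *KAT2A* over *KAT2B*. The shift of *HDAC7* over *HDAC9* was the largest, 1.07, from 2.14 ± 0.09 to 3.20 ± 0.24, and 0.77 on TPM. *HDAC1* over *HDAC2* went from 0.32 ± 0.15 to -0.04 ± 0.04, and on TPM from 1.22 times to 0.949 times.

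**Figure D4:**
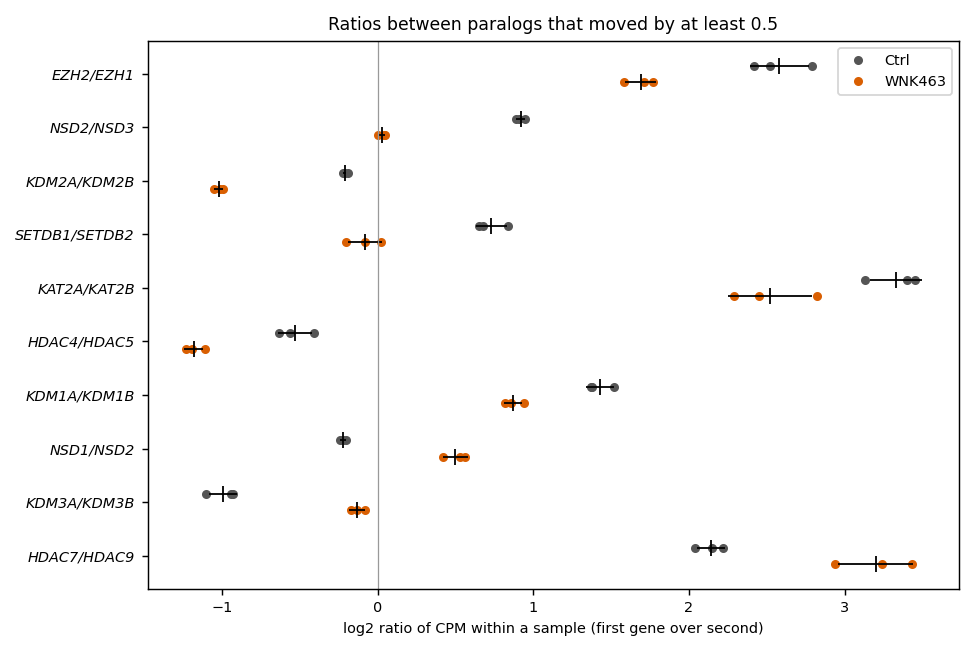
Log2 ratio of CPM of 2 paralogs within each sample (x axis) for the 10 pairs that moved by at least 0.5, Ctrl in grey and WNK463 in orange, with mean and SD in black. The groups are separate in all 10 pairs, and the *EZH2*/*EZH1* ratio drops from 2.58 to 1.69 while the *KDM3A*/*KDM3B* ratio climbs from -0.99 to -0.13.

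The cell cycle genes moved in the same samples. All 22 replication and S phase genes looked up fell, with a median of -1.54, against 35.3% lower among all genes. Of the 22, 19 fell by at least 2-fold, against 5.55% of all genes. Their summed level was 5960 to 6000 CPM in the Ctrl samples and 1940 to 1980 CPM in the WNK463 samples. Of 15 mitotic genes, 12 fell and 2 rose (median -0.45), and their sum was 3420 to 3820 CPM in Ctrl and 2690 to 2830 CPM in WNK463. With total counts 10 of the mitotic genes were lower and 2 higher (median -0.3). *UHRF1*, which reads H3K9 methylation at the replication fork, fell by 1.47. The list is not independent of these samples, since it holds *MCM5*, *CHAF1B* and *GINS2*, which the study singled out in them. The part that a changed cell cycle makeup has in the falls of *NSD2*, *EZH2*, *SUV39H1* and the other enzymes was not tested.

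**Figure D5:**
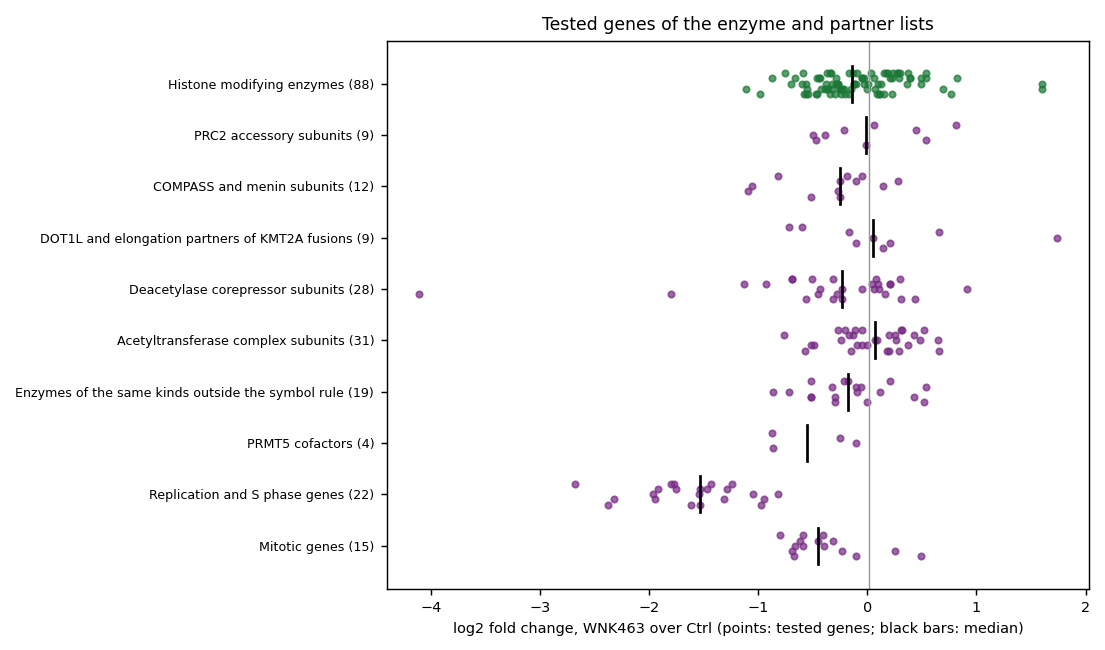
Log2 fold change of WNK463 over Ctrl (x axis) for the tested genes of the enzyme list and of 9 partner and cell cycle lists, each point a gene, with black bars at the medians and a grey line at the median over all genes tested. The replication genes lie well to the left with a median of -1.54, and the enzymes cluster around -0.14.

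Enzymes of the same kinds that lie outside the symbol rule gave a like picture. Of 22 such genes, 19 were tested, 9 fell, 4 rose and 6 did not pass, with a median of -0.18. With total counts 7 were lower and 6 higher. *SMYD4* fell by 0.86 and *NAA40*, an N-terminal acetyltransferase of histones H2A and H4, by 0.72. *SMYD3* rose by 0.54, *NCOA3* by 0.52, *NCOA1* by 0.43 and the H3K36 methyltransferase *ASH1L* by 0.21.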

How the data were processed

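Poly(A)-selected RNA of 6 MV4-11 samples was sequenced by the authors. They deposited 1 table with estimated counts per gene (whole numbers, not normalized) and TPM per sample. The submitters' processing notes name fastp, Bowtie2, HISAT2, StringTie, RSEM, DESeq2, edgeR and GRCh38, without versions or roles. Deposited group means, log2 fold changes and p-values were not used. Groups came from the sample labels. Counts were tested with edgeR 4.0.16 (R 4.3.3; TMM, quasi-likelihood test, filterByExpr defaults) over all genes, with Benjamini-Hochberg adjustment at 0.05. In simulated data for this comparison (11877 genes tested), 96 of 99 genes changed by a log2 fold change of 1 and 98 of 98 changed by 2 were recovered, with 5 false calls. Few genes were changed there, none by less than 1, and all shared 1 dispersion. In the data 8473 of 11973 genes passed and most members changed by less than 0.5. The simulation therefore gives no rate of recovery or false calls for such changes. Alternatives were DESeq2 1.42.0, total-count scaling, no filter or at least 10 counts in every sample, limma 3.58.1 on log2(TPM + 1), on log2(TPM + 0.1) or without the filter on TPM of at least 1, a replicate block, and leaving out each sample. Coordinates are those of the GENCODE annotation of GRCh38, and promoters are from RefSeq.

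Values were given for members with a log2 fold change of at least 1 in size, for the largest rise and fall of each class, for known targets in *KMT2A*-rearranged leukemia and for paralog pairs whose ratio moved by at least 1. Other members and partner genes were picked with their values known. The members, lists and rules were chosen with earlier results of these data known. *KDM5D*, on the Y chromosome, was counted without printing its level, and results of 2 other genes are not reported here. In all, 4605 genes were at 0 in every sample, and 62 values had a count of 0 with a TPM above 0. Precision rests on 3 samples per group, the biological coefficient of variation was 5.21%, and replicates differed by more than counting noise (chi-square per degree of freedom 2.66 to 7.42).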

Additional observations from a re-analysis of the deposited data

How the results depend on the processing

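Members that passed were 24 higher and 41 lower. DESeq2 gave 21 and 38, total counts 35 and 29, no filter 22 and 44, and at least 10 counts in every sample 26 and 38. Limma gave 31 higher on log2(TPM + 1) and log2(TPM + 0.1) and 30 without the filter, and 19 lower in all 3 settings, where TPM were not corrected for library makeup. Members that fell by 2-fold or more numbered 1, *HDAC9*, and 0 with total counts and in all 3 limma settings. Deviations from the group means were not shared by samples of equal replicate number (correlations 0.019, -0.007 and -0.048), so the numbers were not taken as a pairing. A replicate block gave 23 higher and 39 lower, with 2 and 1 past 2-fold. Leaving out single samples gave 22 to 23 higher, 37 to 42 lower and 2 to 3 that rose by 2-fold.

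Class medians, taken relative to all genes, were for log2(TPM + 1), log2(TPM + 0.1) and no filter -0.22, -0.23 and -0.23 in H3K4 methyltransferases (-0.28 on counts), -0.13, -0.14 and -0.13 in H3K9 methyltransferases (-0.22), -0.20, -0.21 and -0.21 in the PRC2 core (-0.25), -0.15, -0.16 and -0.15 in other SETD proteins (-0.26), and -0.09, -0.10 and -0.10 in bromodomain readers (-0.14). For acetyltransferases all 3 of these limma settings gave 0.06 (0.10 on counts). In this paragraph no filter means limma on log2(TPM + 1) without the filter. At least 10 counts in every sample, which drops *KDM4D*, took demethylases to 0.02 (-0.09). Without single samples the medians ran from -0.11 to -0.01 in demethylases, from 0.31 to 0.42 in sirtuins from -0.17 to -0.12 in bromodomain readers, from -0.14 to -0.03 in H3K79 and H4K20 methyltransferases (-0.08 with all samples) and from -0.11 to -0.04 in zinc-dependent deacetylases (-0.06). The ends at -0.01, -0.14 and -0.04 were without Ctrl replicate 3, -0.03 without Ctrl replicate 1 and -0.11 in deacetylases without Ctrl replicate 2.

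Of the 33 genes named by rule, *KAT6A*, *KAT7*, *HDAC2*, *HDAC3* and *HDAC7* changed sign under some setting. *KAT6A*, at 0.00, was at -0.01 with DESeq2 and with no filter, and ran from -0.05 to 0.02 without single samples. *KAT7* was at 0.04 in the 3 limma settings. *HDAC2* was at 0.13 with total counts and 0.17 in the 3 limma settings, and ran from -0.07 to 0.02 without single samples. *HDAC3* was at 0.12 and 0.18, with a range of -0.08 to 0.01. *HDAC7* was at 0.10 with total counts and 0.06 with limma. The cause was not tested. The 10 paralog ratios that moved by at least 0.5 kept their direction in the alternatives run, and *BRD2* over *BRD3*, at 0.05, was at -0.04 on TPM.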

Other observations

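The ratio of counts to TPM within a sample, which follows the effective length of the transcripts a gene is assigned, moved by more than 0.2 on the log2 scale between groups for 8.62% of 11872 genes and for 5 of the 88 tested enzymes (5.68%). *KDM4D* moved by -0.35, with 0.15, -0.17 and 0.16 in Ctrl and -0.30, -0.31 and -0.30 in WNK463 after each sample's median over genes was subtracted, and it was below 1 CPM throughout. *HDAC9* moved by -0.24 with overlapping groups, and *KMT5B* by 0.23 without overlap. Which transcripts of these genes changed was not analysed here.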
